A study of Mus musculus with 24 samples.

Results

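Monocytes are the circulating phagocytes of the mononuclear line, and the 10 genes described here are commonly used to recognise them: the receptors Csf1r, Cx3cr1, Cd14 and Treml4, the surface protein Ly6c1, the transcription factors Spi1, Irf8 and Cebpb, and the effector genes Lyz2 and F13a1. They were found by their gene names on the array, where 16 probes carried them, and all 10 were among the 17525 genes that could be tested. RNA came from whole blood of male C57BL/6J mice, drawn by cardiac puncture 24 h after total body exposure to 4 Gy of x-rays or after a sham exposure. The 4 groups were young mice (2 months) unirradiated and irradiated and old mice (21 months) unirradiated and irradiated, with 6 mice in each and 1 array per mouse. Each value below is the log2 processed signal of a probe minus the median of its array, so that a difference of 1 is a doubling of signal relative to the median spot.

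Monocytes arise in the bone marrow under colony-stimulating factor 1 (M-CSF, encoded by Csf1), which acts through Csf1r, and under the transcription factors PU.1 (encoded by Spi1), Irf8 and members of the C/EBP family. In mouse blood they fall into classical cells, which carry much Ly6C, Ccr2 and little Cx3cr1, and nonclassical patrolling cells, which carry much Cx3cr1 and Treml4 and little Ly6C. None of these genes is confined to monocytes: Irf8 and Spi1 are also active in B cells and dendritic cells, Lyz2, Cd14 and Cebpb in neutrophils and tissue macrophages, and F13a1 in megakaryocytes and platelets. Whole blood RNA was measured, so fewer cells of a type and less RNA per cell cannot be told apart in any value below. In the blood counts of the study the lymphocyte share of white cells fell with irradiation at both ages, and neutrophils became the most abundant. Monocyte shares were reported as similar between young and old mice, both without and with irradiation. The neutrophil share differed between the ages only without irradiation.

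The array measured each gene through 60-base probes, and Csf1r, Cx3cr1, Ly6c1 and F13a1 had more than 1 probe. Shown here are the sequences of 4 probes, because the calls for Lyz2 and Spi1 rest on a single probe each and because Ly6c1 and F13a1 have a brighter probe to compare with. Positions in the transcript and in the genome (mouse build mm9) are those of the array design. The Lyz2 probe starts at base 94 of its transcript and lies at chr10:116719175-116719234. The Spi1 probe starts at base 394 and its design position, chr2:90939665-90953452, is far longer than the probe itself, as for a probe that joins exons. The dimmer Ly6c1 probe starts at base 277 (chr15:74877785-74877844) and the dimmer F13a1 probe at base 711 (chr13:37063829-37063888).
Lyz2: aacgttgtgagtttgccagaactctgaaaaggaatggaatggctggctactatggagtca
Spi1: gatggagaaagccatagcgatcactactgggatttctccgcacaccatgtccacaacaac
Ly6c1, dimmer probe: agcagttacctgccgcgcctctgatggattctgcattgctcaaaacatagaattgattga
F13a1, dimmer probe: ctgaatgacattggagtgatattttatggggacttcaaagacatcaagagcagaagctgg
No probe of another gene on the array shared more than 16 consecutive bases with a probe of these 10 genes, and that longest run lay between the Lyz2 probe and an Angpt2 probe. Probes were compared with probes and not with transcripts, so binding of RNA from other genes was not tested. This includes Lyz1, a near-copy of Lyz2. The near-copy Ly6c2, whose protein carries the Ly6C epitope of classical monocytes, was not on the array under that name, and how far its RNA bound the Ly6c1 probes was not tested.

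RefSeq promoters (GRCm38.p6) were matched for 7 of the 10 genes. PU.1 binds a purine-rich site, and its letters GAGGAA were searched on both strands in the 250 bases before each start: 3 of the 7 genes (Ly6c1, Treml4 and F13a1) held a match and 4 (Cx3cr1, Lyz2, Irf8 and Cebpb) did not, and as a gene can have several starts, this was 4 of their 10 windows, where 23.3% of all 32851 promoter windows held one. The windows of Irf8 (chr8:120736108-120736357, + strand) and Cx3cr1 (chr9:120068297-120068546, - strand) are shown because both genes fell with irradiation in both ages, and that of the more upstream F13a1 start (chr13:37050245-37050494, - strand) because F13a1 rose. Capitals mark the GAGGAA match, which in F13a1 begins 66 bases before the start.
Irf8: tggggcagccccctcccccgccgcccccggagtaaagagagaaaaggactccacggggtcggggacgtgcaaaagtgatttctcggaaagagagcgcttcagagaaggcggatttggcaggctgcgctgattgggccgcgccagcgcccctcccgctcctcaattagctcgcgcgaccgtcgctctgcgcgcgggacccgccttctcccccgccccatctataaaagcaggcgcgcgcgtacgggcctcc
Cx3cr1: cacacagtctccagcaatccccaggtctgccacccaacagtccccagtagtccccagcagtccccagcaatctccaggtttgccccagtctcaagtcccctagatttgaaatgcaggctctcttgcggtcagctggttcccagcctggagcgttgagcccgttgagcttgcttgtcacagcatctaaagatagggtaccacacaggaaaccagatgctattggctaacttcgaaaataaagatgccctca
F13a1: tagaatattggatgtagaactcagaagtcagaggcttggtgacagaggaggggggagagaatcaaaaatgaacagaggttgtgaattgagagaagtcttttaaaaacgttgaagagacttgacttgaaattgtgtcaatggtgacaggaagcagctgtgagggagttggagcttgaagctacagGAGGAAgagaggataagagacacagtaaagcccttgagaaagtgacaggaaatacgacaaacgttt
Their base composition differed, with 67.2% G and C in the Irf8 window, 53.6% in that of Cx3cr1 and 42.8% in that of F13a1. A match describes the letters and is no evidence of a bound factor.

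Several arrays differed from the rest of their group before any comparison. In old irradiated replicates 4 and 6, which shared a slide, the median signal was 8.66 and 8.84 on the linear scale against 14.4 to 44.8 on the other arrays, and their median spread of log2 differences to the other arrays of the group was 1.66 and 1.65 (scaled median absolute deviation over the brighter of the probes above background on all arrays), against 0.27 to 0.77 for the other 22 arrays. These 2 arrays also had the highest log2 summed signal over 8 red cell markers, 17.13 and 17.22, against 14.6 to 16.29 on the other 22. Hepatocyte transcripts were high in young unirradiated replicate 5, young irradiated replicates 2, 4 and 5 and old irradiated replicates 2, 3 and 5, with a log2 summed signal over 13 hepatocyte markers of 11.6 to 15.4, against 5.43 to 9.09 on the other 17 arrays. The pairs of arrays closest relative to the median spread of their group were young irradiated replicates 2 and 5 (spread 0.12), old unirradiated 1 and 6 (0.13), young irradiated 1 and 6 (0.17) and old irradiated 4 and 6 (0.23). The spread between repeat spots of 1 array was 0.05 to 0.10. Repeat spots share the same RNA and hybridisation, so this comparison cannot show whether 2 arrays came from separate mice. All arrays were kept as separate mice because the study's methods describe 6 mice in each group. Young and old mice were on different slides and were scanned on different days, so age cannot be told apart from slide set and scan day. In each age, unirradiated replicates 1 to 4 shared a slide and irradiated replicates 3 to 6 shared another. Only 2 of the 6 slides held both treatments. Treatment was therefore also largely confounded with slide, and the 2 can be told apart only within those shared slides.

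**Figure D1:**
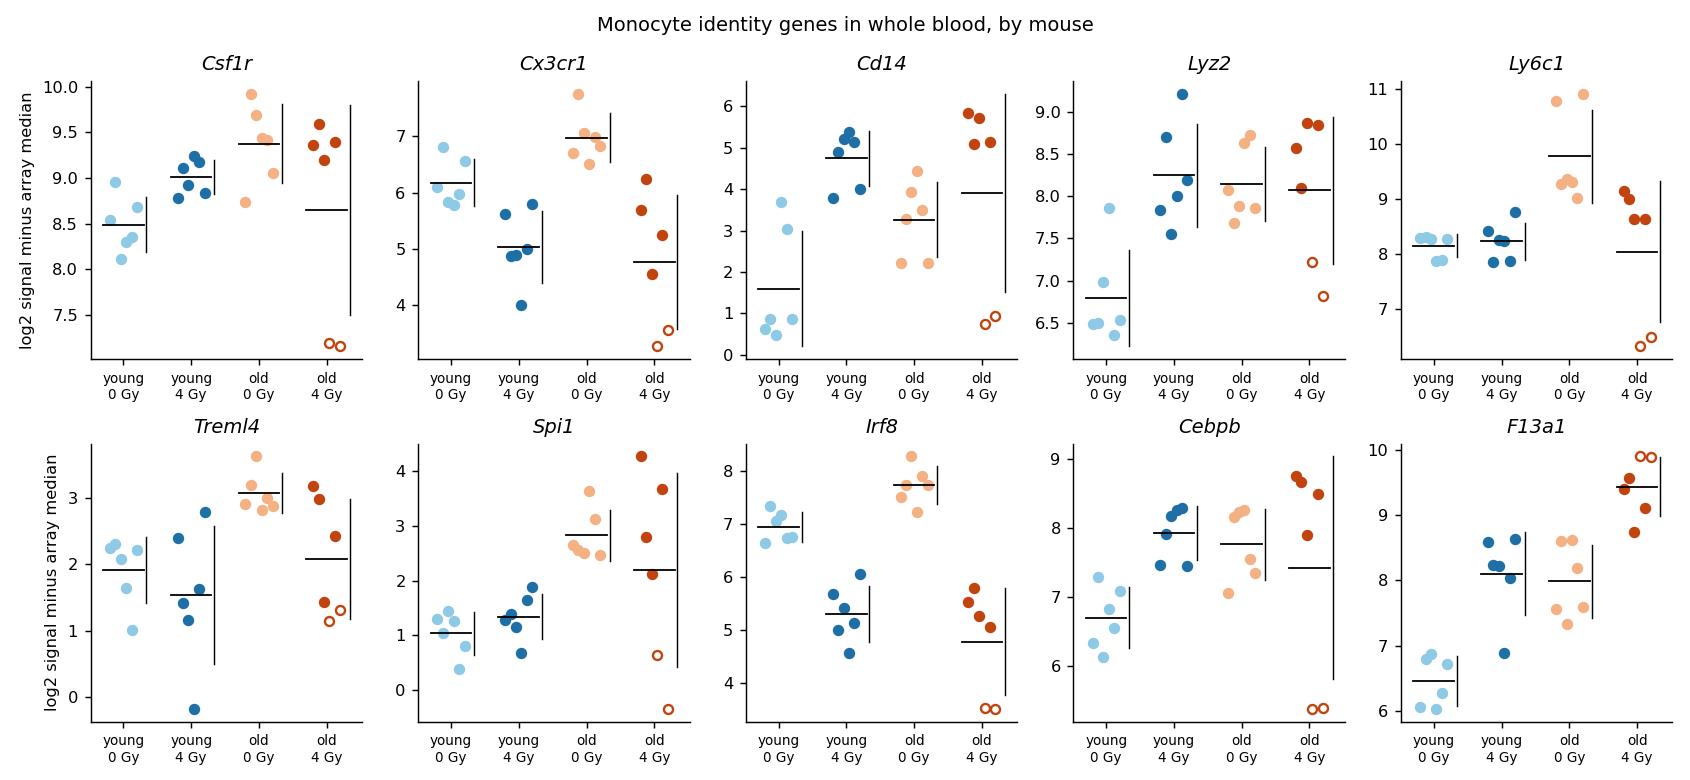
Log2 signal minus array median of each of the 10 genes (vertical axes, different ranges) in each of the 24 mice by age and dose; horizontal lines are group means, vertical lines 1 SD on either side (n = 6), and open circles are old irradiated replicates 4 and 6. Irf8 and Cx3cr1 were lower in irradiated mice of both ages, and the open circles are the lowest old irradiated values in every gene shown except F13a1, where they are the highest.

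In young mice 4 Gy left the monocyte genes divided. Cd14, F13a1, Lyz2 and Cebpb rose and Irf8 and Cx3cr1 fell, while Csf1r, Spi1, Ly6c1 and Treml4 did not pass the test (limma, p under 0.005 and Benjamini-Hochberg adjusted p under 0.05 over all genes). Thus 4 of 10 were higher and 2 of 10 lower, where 14.4% of all genes tested were higher and 21.3% lower. The median difference over the 10 genes was 0.41, against -0.20 over all genes, and the 2 groups of mice did not overlap in 4 of the 10, against 24.9% of all genes.

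Irf8, the factor that directs myeloid progenitors towards monocytes and dendritic cells, ranged from 6.64 to 7.33 (median 6.90) in young unirradiated mice and from 4.57 to 6.06 (median 5.27) in young irradiated mice. Every irradiated mouse was below every unirradiated one, and the level fell by 1.64 on the log2 scale (SE 0.24, 3.11-fold lower, limma adjusted p = 0.0001533). Irf8 is also strong in B cells, and all 10 B cell markers fell in the same mice, with a log2 summed level of 10.8 to 11.1 before and 7.73 to 9.20 after exposure; their part in the Irf8 result was not tested. Cx3cr1, the fractalkine receptor of patrolling monocytes, ranged from 5.79 to 6.81 (median 6.04) without and from 4.01 to 5.80 (median 4.96) with irradiation. Only the tops and bottoms of these ranges touched, and the level fell by 1.14 (SE 0.29, 2.20-fold lower, limma adjusted p = 0.006075). Of the other Cx3cr1 probes, each fitted among all single probes, the one elsewhere in the transcript fell by 1.53 (SE 0.34, limma adjusted p = 0.002855), and the one that shares 55 of its bases with the brightest probe fell by 1.23 (SE 0.27).

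Cd14, the co-receptor for bacterial lipopolysaccharide, showed the largest difference of the 10 genes in young mice. Its level was 0.48 to 3.68 (median 0.86) in unirradiated and 3.79 to 5.39 (median 5.02) in irradiated mice, with no overlap. The difference was 3.15 (SE 0.56, 8.87-fold, limma adjusted p = 0.0006319). Within the unirradiated group 4 mice lay below 1 and replicates 4 and 5 lay above 3. These 2 mice also had the highest tissue macrophage markers of their group, a log2 summed level of 8.95 and 8.53 against 6.29 to 6.75 in the other 4, and over both young groups the 16 macrophage markers ran from 6.29 to 8.95 without and from 9.74 to 11.6 with irradiation. Of the 13 macrophage markers tested 12 rose in young mice, among them Cd5l (5.43) and C1qc (4.91), and their part in the Cd14 result was not tested.

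Cebpb, a C/EBP factor of macrophage activation and of nonclassical monocyte survival, went from 6.13 to 7.29 (median 6.69) to 7.45 to 8.30 (median 8.05). No irradiated mouse reached down to the unirradiated range, and the rise was 1.23 (SE 0.23, 2.34-fold, limma adjusted p = 0.001). Lyz2, the phagocyte lysozyme, had a level of 6.36 to 7.87 (median 6.52) without and 7.55 to 9.22 (median 8.10) with exposure. These ranges overlapped through unirradiated replicate 4, and the rise was 1.46 (SE 0.32, 2.75-fold, limma adjusted p = 0.002232). Neutrophils also make Lyz2, and 5 of 14 neutrophil markers (S100a8, S100a9, Ly6g, Cxcr2 and Il1r2) rose in the same comparison, S100a8 by 1.67; their part was not tested. F13a1, the A chain of coagulation factor XIII, was at 6.03 to 6.88 (median 6.49) without and at 6.89 to 8.63 (median 8.23) with irradiation. The lowest irradiated mouse, replicate 4, was just above the highest unirradiated one, and the rise was 1.64 (SE 0.28, 3.12-fold, limma adjusted p = 0.0005024). The dimmer F13a1 probe differed by 0.91 (SE 0.36, limma adjusted p = 0.05503) and did not pass.

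Exposure did not move the remaining genes past the test in young mice. Csf1r, the receptor for M-CSF and interleukin 34, was at 8.11 to 8.95 (median 8.45) without and 8.78 to 9.24 (median 9.02) with irradiation, a difference of 0.52 (SE 0.16, limma adjusted p = 0.01878) that met the adjusted threshold and missed the unadjusted one. Spi1 lay at 0.39 to 1.44 and 0.69 to 1.88, a difference of 0.30 (SE 0.23). Ly6c1 differed by 0.08 (SE 0.18) between 7.86 to 8.30 and 7.85 to 8.75, and Treml4 by -0.38 (SE 0.43) between 1.01 to 2.30 and -0.18 to 2.80. In each of these 4 genes the irradiated and unirradiated mice overlapped.

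Some calls in young mice were lost when the arrays with hepatocyte RNA were left out. That fit keeps only replicates 1, 3 and 6 of the young irradiated mice, and 1 and 6 were a close pair (spread 0.17). All 6 genes called over all mice kept their directions. Whether hepatocyte RNA or the smaller number of mice cost the calls was not tested. Without young unirradiated replicate 5 and young irradiated replicates 2, 4 and 5, F13a1 (1.98), Cd14 (3.04) and Irf8 (-1.27) stayed past the test, whereas Cx3cr1 (-0.78, limma adjusted p = 0.05498), Lyz2 (0.98, 0.03228) and Cebpb (0.97, 0.02424) did not, so that 3 genes passed instead of 6. On the slide that held 2 mice of each treatment the differences were 2.40 for Cd14, 1.92 for F13a1, 1.82 for Lyz2, 0.87 for Cebpb, -1.40 for Irf8 and -1.02 for Cx3cr1, the same directions as over all 12 mice. With normexp background correction, under which 835 genes were called in place of 6251, Cd14 (2.32) and F13a1 (2.12) passed and the other 4 did not; Lyz2 (1.25) also missed in the deposited values, and Cx3cr1 and Cebpb missed when all 24 arrays were fitted together.

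In old mice Irf8 and Cx3cr1 fell again and F13a1 rose again, and no other gene of the 10 passed the test. This was 1 higher and 2 lower, where 7.6% of all genes tested were higher and 17.4% lower. The median difference over the 10 genes was -0.68, against -0.25 over all genes, and 3 of the 10 did not overlap between the groups, against 22.6% of all genes. Of all calls 30.5% were higher with scaling to the array median, 49.2% with the 75th percentile, 54.3% with the median of probes above background and 52% in the deposited values, and Irf8, Cx3cr1 and F13a1 passed under each of these; with normexp, which called 8 genes in all, none of the 10 passed.

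Irf8 stood at 7.23 to 8.27 (median 7.73) in old unirradiated and at 3.51 to 5.79 (median 5.16) in old irradiated mice. The groups were far apart, and the level fell by 2.95 on the log2 scale (SE 0.42, 7.73-fold lower, limma adjusted p = 0.0005363), and 9 of 10 B cell markers fell beside it, with a log2 summed level of 10.9 to 11.96 before and 6.11 to 9.78 after exposure. Cx3cr1 was at 6.52 to 7.76 (median 6.92) and 3.27 to 6.25 (median 4.90), again without overlap, and fell by 2.22 (SE 0.48, 4.66-fold lower, limma adjusted p = 0.004395). F13a1 was at 7.33 to 8.62 (median 7.89) without and 8.75 to 9.90 (median 9.48) with irradiation. Here, too, the groups did not overlap, and F13a1 rose by 1.45 (SE 0.31, 2.73-fold, limma adjusted p = 0.004285), while its dimmer probe differed by 1.06 (SE 0.32) without passing the test. All 3 directions were also seen on the slide with 2 mice of each treatment, with differences of -2.16 for Irf8, -0.94 for Cx3cr1 and 1.59 for F13a1. On that slide, without a test, 5 other genes had the opposite sign to that over all 12 mice, Cebpb at 1.26, Spi1 at 0.74, Csf1r at 0.24, Treml4 at 0.15 and Lyz2 at 0.04, while Cd14 differed by 2.60 and Ly6c1 by -0.89.

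Among the genes that did not pass in old mice, replicates 4 and 6 lay below the other irradiated mice. Cd14 was at 2.21 to 4.44 (median 3.40) in old unirradiated mice and at 0.75 to 5.84 (median 5.12) in old irradiated mice, where 4 mice lay above 5 and replicates 4 and 6 below 1. The difference was 0.65 (SE 0.92) over all 12 mice and 2.18 without these 2 arrays, which passed the test (limma adjusted p = 0.002063). Cebpb was at 7.07 to 8.26 (median 7.86) without and 5.38 to 8.76 (median 8.20) with exposure, with a difference of -0.34 (SE 0.62) over all mice and 0.68 without them. For Csf1r the levels were 8.74 to 9.92 (median 9.43) and 7.16 to 9.59 (median 9.28), a difference of -0.73 (SE 0.47) that became 0.01 without the 2 arrays. Spi1 ran from 2.47 to 3.64 (median 2.61) and from -0.34 to 4.27 (median 2.46), a difference of -0.63 (SE 0.67), or 0.39 without them.

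Ly6c1 was at 9.02 to 10.92 (median 9.33) in old unirradiated mice, with replicates 1 and 6 well above the other 4, and at 6.31 to 9.15 (median 8.64) in old irradiated mice. Unirradiated replicates 1 and 6 also had the highest T cell markers of their group. The log2 summed level of these markers was 11.15 and 11.29, against 9.49 to 10.07 in the other 4. The part of T cell RNA in the Ly6c1 result was not tested. The Ly6c1 difference of -1.74 with irradiation (SE 0.57, limma adjusted p = 0.03079) missed the unadjusted threshold, and it was -0.92 without irradiated replicates 4 and 6. Lyz2 lay at 7.68 to 8.73 and 6.81 to 8.87, a difference of -0.07 (SE 0.39), and Treml4 at 2.83 to 3.63 and 1.15 to 3.19, a difference of -0.99 (SE 0.38, limma adjusted p = 0.05748). Without the 2 arrays 4 genes passed, Irf8 (-2.32), Cx3cr1 (-1.54), F13a1 (1.22) and Cd14. Without the 3 old irradiated arrays with hepatocyte RNA these 4 passed, Irf8 (-3.54), Cx3cr1 (-2.81), F13a1 (1.75) and Ly6c1 (-2.46), and Cd14 then differed by -0.76. This fit keeps only replicates 1, 4 and 6 of the old irradiated mice.

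**Figure D2:**
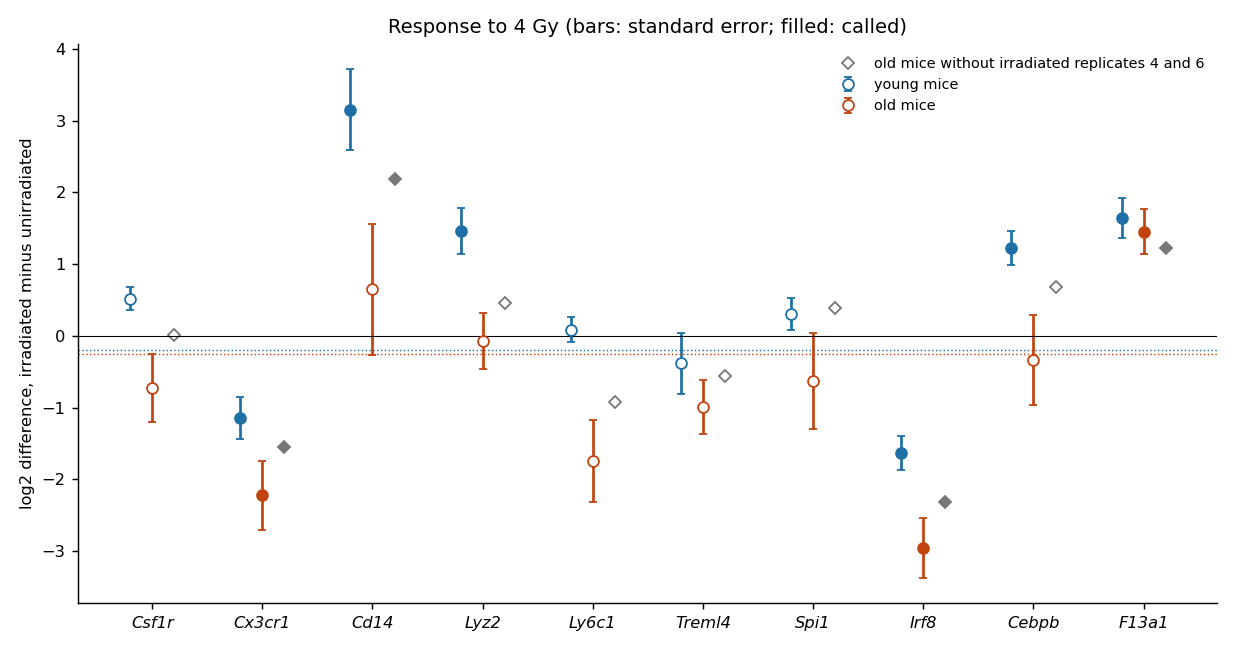
Log2 difference between irradiated and unirradiated mice (vertical axis) for each gene, with standard errors from limma; blue circles are young mice, red circles all 12 old mice and grey diamonds old mice without irradiated replicates 4 and 6, filled where the gene was called, and dotted lines are the medians of all genes. Irf8 (-1.64 and -2.95), Cx3cr1 (-1.14 and -2.22) and F13a1 (1.64 and 1.45) were called in both ages, and Cd14 (2.18) was called in old mice only without the 2 arrays.

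The responses of the 2 ages were then compared directly through the interaction of age and radiation over all 24 arrays. None of the 10 genes passed, and none of the 17525 genes did (0%) by limma or by the methods' random variance test; at an unadjusted p under 0.05 it was 6 of 10 genes and 4116 of all, and the lowest adjusted p over all genes was 0.06011. The count over all genes was 1036 without old irradiated replicate 3, at most 7 when any other single array was left out, and 32 with slide as a random block, with none of the 10 genes among them. The response in old mice minus the response in young mice was -2.50 for Cd14 (SE 1.14, limma adjusted p = 0.1912), -1.82 for Ly6c1 (SE 0.62, 0.1315), -1.57 for Cebpb (SE 0.69, 0.1846), -1.53 for Lyz2 (SE 0.51, 0.131), -1.31 for Irf8 (SE 0.49, 0.1439) and -1.25 for Csf1r (SE 0.51, 0.162). For F13a1 it differed by only -0.19 (SE 0.42), and the median over all genes was -0.24. Without the 7 arrays with hepatocyte RNA 3206 of all genes passed, Cx3cr1 (-2.03), Ly6c1 (-2.74) and Irf8 (-2.27) among them, with old irradiated replicates 4 and 6 then 2 of the 3 old irradiated mice. Without replicates 4 and 6 instead, none of the 10 passed. The interaction was then -0.40 for Cx3cr1, -1.002 for Ly6c1 and -0.68 for Irf8. It was -0.97 for Cd14, -0.54 for Cebpb, -0.51 for Csf1r and -1.005 for Lyz2.

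Differences between 2 genes on the same array do not depend on the constant by which an array is scaled. The level of 1 probe against another has no meaning in itself, so only its change between groups is described, and the pairs named were chosen after their values were seen. Csf1r minus Cx3cr1 was 2.12 to 2.52 in young unirradiated and 2.04 to 2.92 in old unirradiated mice, but 3.04 to 5.23 in young irradiated and 3.34 to 4.65 in old irradiated mice. Both ages separated completely by treatment, and old irradiated replicates 4 and 6 (3.93 and 3.61) lay among the other old irradiated mice. For Irf8 minus Cebpb they were the 2 highest of their group (-1.84 and -1.88), yet below every unirradiated mouse. Irf8 minus Cebpb was -0.35 to 0.92 and -1.04 to 0.45 in unirradiated young and old mice and -3.70 to -1.40 and -3.43 to -1.84 in the irradiated ones. The mean went from 0.24 to -2.62 in young and from -0.04 to -2.65 in old mice.

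Of the 45 possible pairs of the 10 genes, 18 separated irradiated from unirradiated young mice and 13 did so in old mice. The share over pairs of all genes was not computed, and single genes without overlap were already 24.9% of all in young and 22.6% in old mice, so nothing particular to these genes is read from the counts. None of the 45 separated old from young unirradiated mice, and 1 pair, Irf8 minus F13a1, separated old from young irradiated mice, at -6.38 to -3.49 against -3.23 to -2.33.

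**Figure D3:**
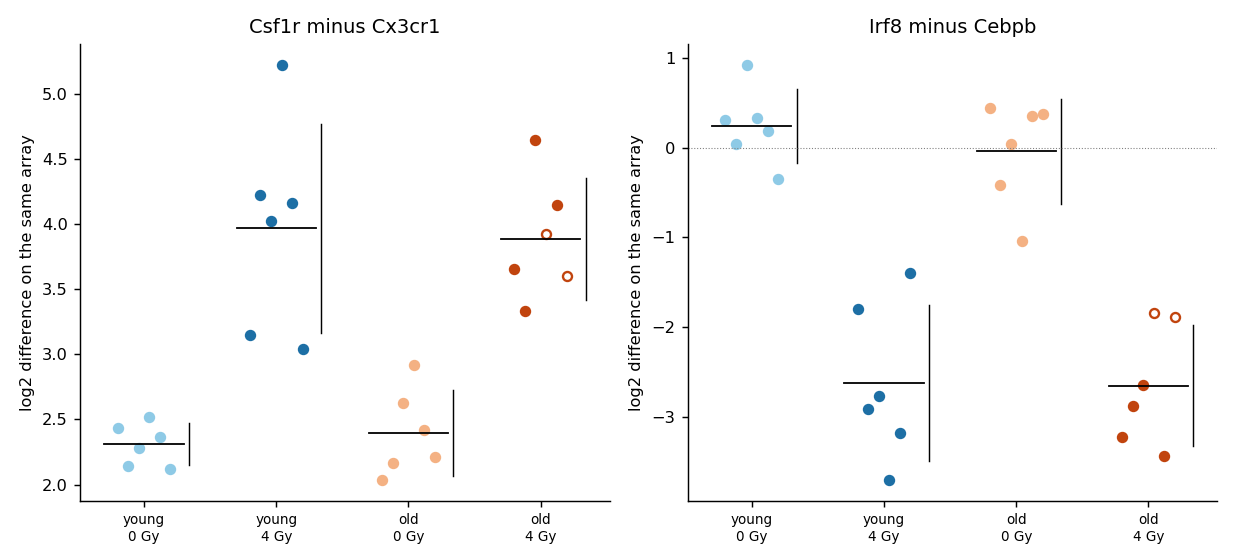
Difference in log2 signal between 2 genes on the same array (vertical axes) for each of the 24 mice by age and dose; horizontal lines are means, vertical lines 1 SD on either side (n = 6) and open circles old irradiated replicates 4 and 6. Csf1r minus Cx3cr1 was at most 2.92 in unirradiated and at least 3.04 in irradiated mice, and Irf8 minus Cebpb was at least -1.04 and at most -1.40.

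Between unirradiated mice, 9 of the 10 genes were higher in old than in young mice and none was lower, but 48.1% of all genes tested were higher and 15.5% lower, and the median difference over all genes was 0.62. Over the 10 genes the median was 1.26, and the groups did not overlap in 4 of them, against 48.5% of all genes. The direction of the whole table turned on the scaling: 75.7% of all calls were higher in old mice with the array median, 27.8% with the 75th percentile and 17.2% in the values the authors deposited, and the median over all genes became -0.03 and 0.02. The differences of the 10 genes are therefore given together with that shift.

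Spi1, which encodes PU.1, lay at 0.39 to 1.44 (median 1.16) in young and at 2.47 to 3.64 (median 2.61) in old unirradiated mice. These ranges were well apart, and the difference of 1.79 (SE 0.23, 3.45-fold, limma adjusted p = 3.185e-05) was 1.16 above the median of all genes. It passed with the array median, the 75th percentile (1.27), the median of probes above background (1.23), quantile normalization (1.46) and the deposited values (1.28), and missed with normexp background correction (0.64). The Spi1 probe was dim, with a mean linear signal of 56.6 in young and 164.6 in old unirradiated mice. With normexp, which added an offset of 50, 0 of 11782 genes passed between unirradiated ages, so a miss there is not particular to Spi1. The part of the offset in the Spi1 result was not tested. F13a1 was higher in old mice by 1.52 (SE 0.26, limma adjusted p = 0.0001729), without overlap, and also passed with the 75th percentile (1.005), the median of probes above background (0.96) and quantile normalization (0.90), but not with the deposited values (0.80) or normexp (0.97). Ly6c1 (1.63, SE 0.32) and Treml4 (1.16, SE 0.23) did not overlap between the ages and passed with the array median; under the 75th percentile Treml4 differed by 0.64 and missed, and Ly6c1 varied too little to be tested; in the deposited values Treml4 differed by 0.60 and Ly6c1 by 1.21, and both missed.

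Csf1r (0.89, SE 0.21), Cx3cr1 (0.80, SE 0.23), Irf8 (0.79, SE 0.19), Cebpb (1.06, SE 0.26) and Lyz2 (1.35, SE 0.27) passed with the array median, overlapped between the ages, and missed under the 75th percentile, the median of probes above background, quantile normalization, normexp and the deposited values, where Csf1r could be tested under 3 of these. With the array median the difference of Cx3cr1 and Irf8 was within 0.18 of the median of all genes. Cd14 differed by 1.67 (SE 0.59, limma adjusted p = 0.01929) and did not pass. Counting over the 10 genes, those called higher thus numbered 9 with the array median, 1 in the deposited values, 0 with normexp and 2 under each of the remaining 3 scalings.

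**Figure D4:**
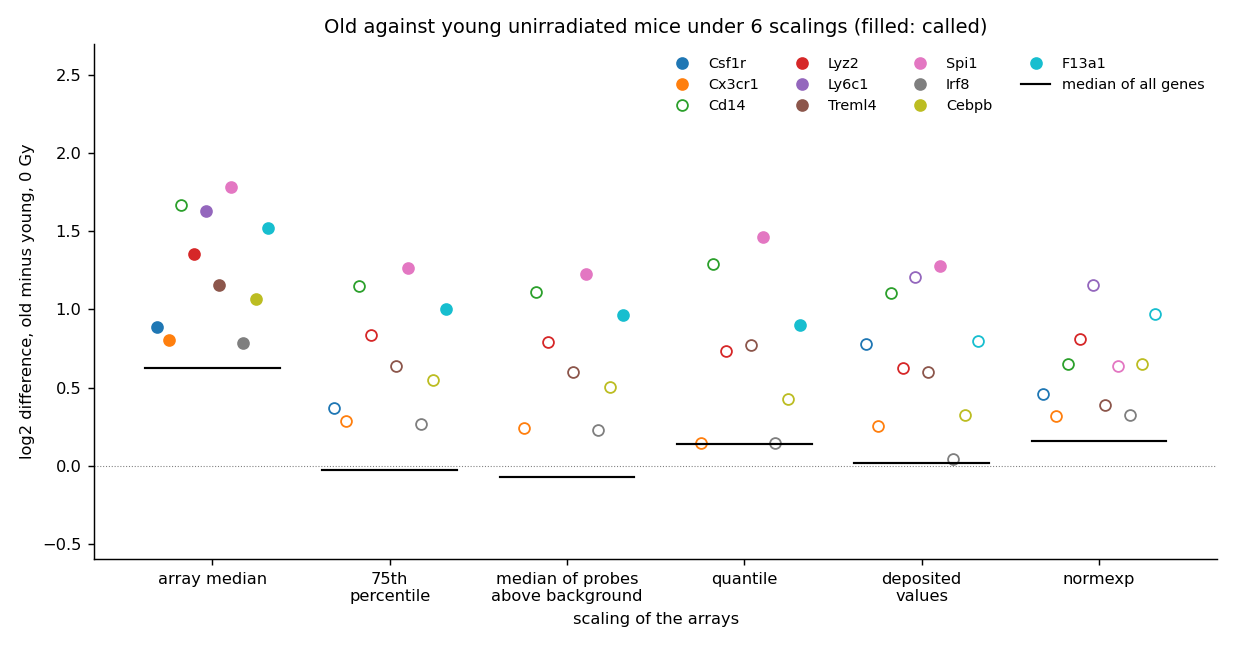
Log2 difference between old and young unirradiated mice (vertical axis) for each gene under 6 ways of scaling the arrays, filled where the gene was called; black lines are the medians of all genes and a gene that could not be tested is left out. Spi1 was the highest of the genes tested and was called under all scalings but normexp, F13a1 was called under 4, and every other call was made with the array median.

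After irradiation fewer genes differed between the ages, 350 of 17525 in all. That count was 30 to 502 when 1 array was left out, 30 without young irradiated replicate 3 and 502 without old irradiated replicate 6, and it was 2 with replicate number as a block and 7 with very similar arrays averaged. None of the 10 genes passed between old and young irradiated mice, where 1.4% of all genes were higher and 0.599% lower, and 1 of 10 did not overlap, against 5.05% of all genes. That gene was F13a1, at 6.89 to 8.63 in young and 8.75 to 9.90 in old irradiated mice, with a difference of 1.33 (SE 0.33, limma adjusted p = 0.05746; unadjusted p = 0.001472) beside a median of 0.20 over all genes. Its dimmer probe, fitted in a table of all single probes, differed by 1.59 (SE 0.36, limma adjusted p = 0.04198). That probe was near background, with a mean linear signal of 39.7 in young irradiated mice. It was well above background on 4 of those 6 arrays. Spi1 differed by 0.85 (SE 0.67) and Cd14 by -0.83 (SE 0.90), both without passing the test. Without old irradiated replicates 4 and 6, 4974 of all genes passed, and of the 10 this was Spi1 (1.88), while F13a1 differed by 1.10 and Cd14, now in the other direction, by 0.70, and neither passed. The share of higher calls was 70% with the array median, 24.6% with the 75th percentile and 15.9% in the deposited values.

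Platelet genes moved beside F13a1. All 10 platelet and megakaryocyte markers rose with irradiation in young mice and in old mice, Itgb3 by 1.86 and 2.06 and Pf4, a platelet chemokine, by 1.40 and 1.32, and 9 of 10 were higher in old than in young unirradiated mice with the array median scaling, under which 48.1% of all genes were; none passed between the irradiated ages. Their log2 summed level ran from 12.1 to 12.9 in young unirradiated, 13.4 to 14.8 in young irradiated, 12.97 to 13.99 in old unirradiated and 14.5 to 15.6 in old irradiated mice. The lowest young irradiated F13a1 value (replicate 4, 6.89) went with the lowest platelet level of its group (13.4), and the highest old irradiated values (replicates 4 and 6, 9.90 and 9.89) with the highest platelet levels (15.57 and 15.59). The study's own blood counts showed no appreciable change of platelet numbers with irradiation at either age. Those counts were higher in old than in young unirradiated mice. The part of platelet RNA in the F13a1 results was not tested. Beside the tissue macrophage markers, Cd14 was low with them in old irradiated replicates 4 and 6 (Cd14 0.75 and 0.93, markers 6.97 and 7.16), whereas old irradiated replicate 1 had the highest Cd14 (5.84) at a marker level of 8.36.

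**Figure D5:**
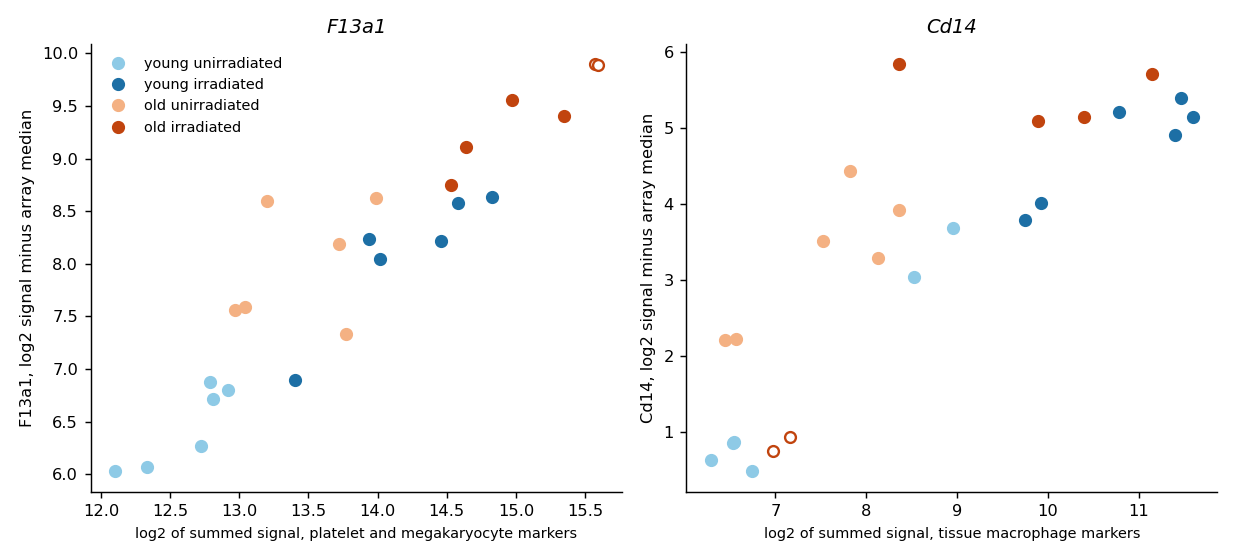
Left, F13a1 against the log2 summed signal of 10 platelet and megakaryocyte markers; right, Cd14 against that of 16 tissue macrophage markers, with 1 point per mouse, colours for the 4 groups, and open circles for old irradiated replicates 4 and 6. Old irradiated replicates 4 and 6 are the highest points on the left (F13a1 9.90 and 9.89) and are low on both axes on the right (Cd14 0.75 and 0.93), and old irradiated replicate 1 has the highest Cd14 (5.84) at a macrophage level of 8.36.

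Each gene was then set beside all others by the root mean square distance between log2 profiles over the 24 arrays, each centred on its own mean, so that a smaller value is a closer likeness. Within the 10 genes the closest pairs were Csf1r and Cebpb (0.42) and Cx3cr1 and Irf8 (0.48), and the farthest were Cd14 and Irf8 (2.41). Over all genes Irf8 was closest to Filip1l (0.31), Rhobtb2 (0.35) and Strbp (0.39), and Cx3cr1 to Grk3 (0.32), Nxpe4 (0.34) and Stap1 (0.39), where the median gene was 1.43 from Irf8 and 1.25 from Cx3cr1. F13a1 was closest to Rbpms2 (0.31), Cd93 (0.32) and Itgb4 (0.33), and Cd14 to Padi4 (0.51), Wfdc17 (0.53) and Cfp (0.55). Nearest to Csf1r were Erlin1 (0.23), Abca3 (0.25) and Gnpda1 (0.25), and nearest to Cebpb were Metrnl (0.24), Aldh3b1 (0.25) and Hsd17b11 (0.27). Spi1 lay closest to Sbno2 (0.28), Ier2 (0.28) and Purg (0.37), Lyz2 to Mtmr10 (0.34), Ptov1 (0.38) and Lrpap1 (0.39), Treml4 to Akna (0.43), Pnrc1 (0.43) and Sh2d1b1 (0.44), and Ly6c1 to a transcript without a gene name (0.25), Ada (0.33) and Epop (0.38).

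Different probes of a gene did not always give the same picture. For Csf1r the brightest probe and a dimmer probe differed by 0.89 and 1.41 between old and young unirradiated mice, whereas the remaining probe differed by 0.10 (SE 0.14) there and by 0.01 and -0.01 with irradiation in young and old mice. The Ly6c1 probe shown above differed by -0.31 (SE 0.33) with irradiation in young mice, where the brightest probe gave 0.08, and neither passed.

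In the lists of further monocyte genes, chosen with earlier results known, members moved in both directions. Of 15 ligands and lineage factors tested, 7 rose and 2 fell in young mice (median 0.54) and 3 rose and 2 fell in old mice (median -0.09). Irf4 (-1.29 and -2.74) and Irf5 (-0.68 and -1.97), both interferon regulatory factors, fell in both ages beside Irf8, and Runx1, a haematopoietic factor, rose in both (1.22 and 1.27). The M-CSF gene Csf1 rose in old mice (1.48) and differed by -0.31 in young mice, and Il34, the other Csf1r ligand, rose in old mice (1.46) and differed by 0.10 in young. Cebpd, a relative of Cebpb, rose in young mice (1.31) and differed by 0.64 in old, and Id2 did likewise (1.60 and 0.36). Irf4, Irf5, Runx1 and Il34 were picked out after their values were seen.

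Classical monocyte genes showed 3 higher and 2 lower of 11 tested in young mice (median 0.20) and 0 higher and 2 lower in old mice (median -0.77). Hp, encoding haptoglobin, and Fn1, encoding fibronectin, rose by 2.84 each in young mice and differed by 0.85 and -0.65 in old mice. Hepatocytes also make both, and among young irradiated mice the log2 summed level of the classical list was highest on the arrays with hepatocyte RNA, at 12.66, 13.43 and 12.55 in replicates 2, 4 and 5 against 11.33, 12.25 and 11.4 in replicates 1, 3 and 6; their part was not tested. Fcgr1 was the other that rose, and Chil3 and Ms4a4c fell (by 1.03 for Ms4a4c) in young mice. The 2 that fell in old mice were Ccr2 (-2.20), the chemokine receptor by which classical monocytes leave the marrow, and S100a4 (-1.22); Fcgr1, Chil3, Ccr2 and S100a4 were named after their values were seen. In old irradiated replicates 4 and 6 the classical list summed to 10.19 and 10.07, below the 11.75 to 12.64 of old unirradiated mice, whereas the other 4 irradiated mice were at 12.70 to 12.87. Nonclassical genes showed 3 higher and 1 lower of 12 in young mice (median 0.40), with Fcgr4 at 1.73, Gngt2 at 0.89 and Cd274 at 1.499, and 0 higher and 1 lower in old mice (median -0.66); the gene that fell in both ages was Pou2f2 (-1.68 and -2.38), a B cell transcription factor as well. This list, too, was lowest in old irradiated replicates 4 and 6, with summed levels of 8.10 and 8.29, while the other 4 were at 9.44 to 9.89 and old unirradiated mice at 9.35 to 10.13. Genes shared by phagocytes were 7 higher and 0 lower of 14 in young mice (median 0.87), including Tyrobp (1.05), Fcer1g (1.40), Itgam (1.18) and Cst3 (0.95), and 1 higher (Fcer1g, 1.13) and 1 lower (Ms4a6c, -2.06) in old mice (median -0.21).

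These lists stand beside the whole-table medians of -0.20 in young and -0.25 in old mice and beside the shares of all genes called, 14.4% higher and 21.3% lower in young and 7.6% higher and 17.4% lower in old mice. A list whose share is near these is no result about that list, and with lists this short 1 gene moves the share far. Other blood cells moved as well. Tissue macrophage markers, of which 12 of 13 rose in young mice, were 1 higher (C1qb) and 1 lower (Spic) in old mice. Their median difference was 2.75 in young and 1.535 in old mice. Neutrophil markers were 5 higher of 14 in young and 0 in old mice. Their median difference was nonetheless similar, 0.61 in young and 0.63 in old mice. T cell markers were 8 lower of 10 in young and 1 lower (Tcf7) in old mice (medians -1.32 and -0.66). Natural killer cell markers were 4 higher of 8 (Ncr1, Klrb1c, Klra8 and Gzma) in young and 0 in old mice (medians 1.198 and 0.37). Counts of calls do not compare the size of the response between the ages, and no gene passed the interaction test over all 24 arrays. Dendritic cell markers were 2 higher and 5 lower of 7 tested in young and 2 lower (Flt3 and Tcf4) in old mice, red cell markers 5 lower of 8 in young and 0 in old mice, and endothelial markers 6 and 7 higher of 8. Hepatocyte markers were 0 higher of 9 tested in young and 8 higher in old mice; in old unirradiated blood 9 of 13 were well above background on no array. Their part in the results for the 10 genes was not tested beyond the fits without those arrays.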

How the data were processed

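Whole blood RNA of 24 mice was hybridised to 1-colour Agilent arrays, 1 array per mouse. The authors deposited spot intensities, background-corrected by Agilent Feature Extraction 12.0.2, and a table of log2 values made in BRB-ArrayTools with median normalization (array medians of 5.77 to 6.73). These differed from the log2 scanner signals by more than a constant (spread 0.02 to 0.60 within an array), so their scale and direction are known and their exact centring is not. From the deposited intensities, log2 processed signals were centred on each array's median, probes that were dim or flagged for uneven spots in 6 or more arrays (25%) were left out, genes had to differ 1.5-fold from their median in at least 5 arrays (20%), and the brightest probe stood for a gene, leaving 17525 genes (39429 probes on the array). Groups came from the sample titles. limma 3.58.1 (R 4.3.3) compared 2 groups of 6, two-sided, and all 24 arrays served for the interaction; genes were called at p under 0.005 with Benjamini-Hochberg adjusted p under 0.05. The methods' random variance t-test was an alternative, with other scalings, filters and blocks. The number of arrays limits the precision. Each array is a separate mouse, per the study's methods. The fits were also run on simulated data with independent normal noise for each gene. Those data held no slide effects, arrays standing apart or very similar arrays, so they cannot show how the fits behave under these. Named were all 10 genes, up to 4 of each marker list by mean signal, and the 3 nearest genes in profile. The genes and lists were chosen with earlier results of these data known. Figures used Python 3.11.15 with matplotlib 3.10.9.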

Additional observations from a re-analysis of the deposited data

Results flagged for a closer look

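F13a1 in young irradiated replicate 4 stood apart from its group: its level was 6.89, while the other 5 mice lay between 8.04 and 8.63. The gap to the nearest mouse was 0.66 of the range of the group, above the 0.625 that is Dixon's limit for 6 samples. This was the only such value among 40 groups of 6 tested (10 genes in 4 groups), and chance alone flags about 1 in 20 groups. Without this mouse the F13a1 difference in young mice was 1.88 instead of 1.64.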

How the results depend on the processing

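The 10 log2 differences and the counts of called genes were recomputed with other scalings, background correction, filters, probes, tests, blocks and samples. The cause of the changes below was not tested unless named. With normexp the genes called numbered 2 (young mice, radiation), 0 (old mice, radiation) and 0 (unirradiated ages). The count of 9 between unirradiated ages became 2 after quantile normalization, 2 with the 75th percentile or the median of probes above background, 1 in the deposited values and 4 when all 24 arrays were fitted together. Between irradiated ages it went from 0 to 1: F13a1 passed with the mean of all probes, with a robust variance trend in limma, with all 24 arrays fitted together and with slide as a random block, and Spi1 passed without old irradiated replicates 4 and 6. Without the arrays with hepatocyte RNA it was 3 in young mice and 3 for the interaction. These left-out sets and the averaging of very similar arrays were chosen after seeing the data.

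Directions turned for small differences and for larger ones. Among the larger were Treml4 (-0.99), Csf1r (-0.73) and Spi1 (-0.63) in old mice. Others were Cd14 between irradiated ages (-0.83) and Spi1 for the interaction (-0.93). Ly6c1 in young mice became -0.54 in the deposited values and -0.11 with the mean of probes, and Treml4 0.0191 without hepatocyte arrays and 0.29 within the slide holding both treatments. In old mice Lyz2 became 0.23 (75th percentile), 0.26 (median of probes above background), 0.62 (normexp), 0.46 (without replicates 4 and 6) and 0.10 (similar arrays averaged), Spi1 0.18 (normexp) and 0.39 (without 4 and 6), Cebpb 0.35 and 0.68, Csf1r 0.009817 without 4 and 6, and Cd14 -0.76 without hepatocyte arrays; within the slide holding both treatments Cebpb was 1.26, Spi1 0.74, Csf1r 0.24, Treml4 0.15 and Lyz2 0.04. Between irradiated ages, without replicates 4 and 6, Csf1r became 0.38, Cx3cr1 0.40, Cd14 0.70, Lyz2 0.35, Ly6c1 0.63, Irf8 0.10 and Cebpb 0.52; Ly6c1 became 0.01566 with the mean of probes, Treml4 -0.23 without hepatocyte arrays, and Cx3cr1 0.14, Lyz2 0.15 and Ly6c1 0.13 with similar arrays averaged. For the interaction F13a1 became 0.10 with the 75th percentile and 0.10 with the median of probes above background, and Spi1 0.01425 with normexp and 0.08804 without 4 and 6.

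Leaving out each array in turn gave 6 to 7 called genes in young mice, 3 in old mice, 8 to 9 between unirradiated ages and 0 elsewhere. It turned Ly6c1 in young mice (-0.02078 to 0.16), Lyz2 (-0.23 to 0.18) and Cebpb (-0.60 to 0.07145) in old mice, and Cx3cr1 (-0.57 to 0.02226), Lyz2 (-0.34 to 0.07393) and Ly6c1 (-0.42 to 0.15) between irradiated ages. With replicate number as a block 6, 3, 10, 0 and 0 genes passed in the order of the comparisons above. The numbers do not pair the mice (correlations of the deviations of same-numbered mice ran from -0.60 to 0.59), so the replicate block was an alternative only; it added Cd14 between unirradiated ages. The directions of Irf8, Cx3cr1 and F13a1 with irradiation held in both ages under every alternative run.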
